A study of Ovis aries with 20 samples.

Results

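Corticosteroid signalling was described through 5 genes: the glucocorticoid receptor NR3C1, the mineralocorticoid receptor NR3C2, the enzymes HSD11B1 and HSD11B2, and the chaperone HSP90AA1. All probes whose gene name or description in the scanner files named one of them were taken, which gave 8 probes for the 5 genes among 988 genes named on the array. For each gene the probe with the highest mean over 20 arrays is called probe 1 where the gene had more than 1. Singleton newborn sheep provided left ventricle (LV) and interventricular septum from 4 groups of 5: LV of cortisol lambs, LV of control lambs, septum of cortisol lambs and septum of control lambs. Ewes of cortisol lambs had received cortisol at 1 mg/kg/day and ewes of control lambs the vehicle, in both cases from about day 115 of gestation to birth, and every sample title carries the word telemetry. Hearts were taken 10 to 480 min after birth. The time of each lamb is not given in the labels. Whole tissue was measured, so fewer cells of a type and less RNA per cell cannot be told apart in any value below.

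Cortisol acts through a pair of nuclear receptors. In the cytoplasm the receptor is held by HSP90 in a form that can bind the hormone, and after binding it moves to the nucleus and regulates transcription. HSD11B1 regenerates active cortisol from inactive cortisone, whereas HSD11B2 inactivates cortisol and so, in kidney, keeps the mineralocorticoid receptor free for aldosterone. Heart muscle cells contain both receptors and have little HSD11B2, so that their mineralocorticoid receptor is largely occupied by cortisol.

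The probes themselves set what could be measured. NR3C1 and HSP90AA1 each had 1 probe of 60 bases with an open reading frame on the sense strand, shown whole because every value of these genes rests on it. For NR3C2 and HSD11B2, each with 2 probes, the last 30 bases are shown, with capitals marking the polyadenylation hexamer in HSD11B2.
NR3C1: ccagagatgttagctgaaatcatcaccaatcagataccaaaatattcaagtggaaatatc
HSP90AA1: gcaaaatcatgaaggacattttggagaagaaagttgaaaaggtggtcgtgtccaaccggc
NR3C2 probe 1: tcgcttgtgttaaaagggttcaagaactaa
NR3C2 probe 2: aaaagccatatctagtcaataactttctga
HSD11B2 probe 1: tgacactttttgAATAAAgataaattttta
HSD11B2 probe 2: gacactttttgAATAAAgataaatttttat
The NR3C2 probes start 86 bases apart in their source transcript and share no bases. The HSD11B2 probes start 1 base apart and share 59 of their 60 bases, so they report nearly the same stretch of transcript. The HSD11B1 probes start 122 bases apart.

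All levels below are log2 processed signal minus the 75th percentile of the same array, so that 0 stands for a signal brighter than that of 75% of probes. The share of spots well above background lay between 57.9% and 72.1% over the 20 arrays, and the 75th percentile over spots between 99.2 and 441 intensity units. The arrays were spread over 4 slides: slide 1 held septum only, slide 3 LV only, slide 2 both regions, and slide 4 a single LV array of a cortisol lamb. The cardiomyocyte markers MB, MYH7 and HAND1, the 3 of 24 that could be named, were well above background on all 20 arrays. Nothing in the labels says more of the replicates than that 5 lambs a group were used. For cortisol against control within a region or in the average, p-values measure the spread between these lambs. For septum against LV with lamb as a block they measure the spread of the difference within lambs. Where arrays are taken as independent, both arrays of a lamb count separately.

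NR3C1, NR3C2 and HSP90AA1 were well above background on all 20 arrays, as was HSD11B1 probe 1, and no member spot was saturated. NR3C2 probe 1 lay between 1.14 and 3.01, its probe 2 between -0.48 and 1.40, NR3C1 between -1.69 and 0.77, and HSP90AA1 between 0.17 and 1.34. HSD11B1 probe 1 lay between -3.49 and -1.07, with processed signals of 23.0 to 127 units. Both enzymes also gave signals at the background limit: HSD11B1 probe 2 was well above background on 5 of 20 arrays, HSD11B2 probe 1 on 11 and HSD11B2 probe 2 on 12. HSD11B2 probe 1 was well above background on 3 of 5 LV arrays of cortisol lambs, 2 of 5 of control lambs, 3 of 5 septum arrays of cortisol lambs and 3 of 5 of control lambs. Among values that were not well above background no order can be read.

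**Figure D1:**
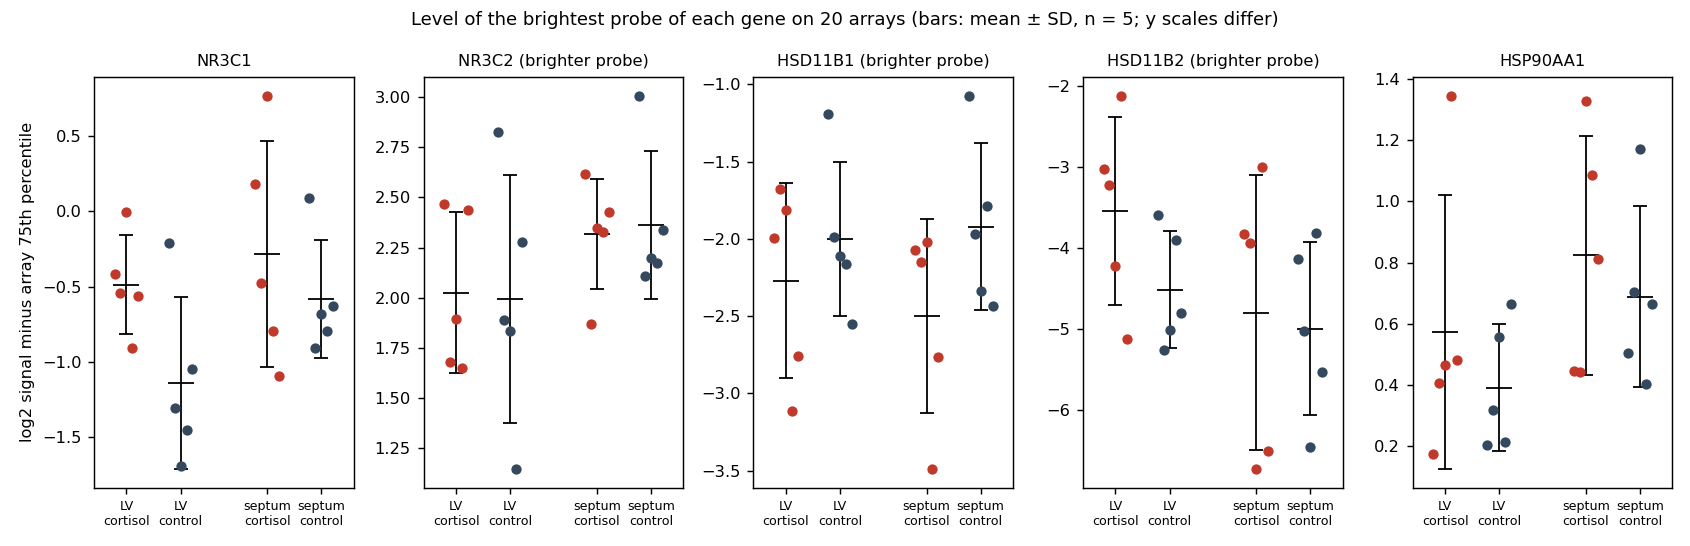
Level of the brightest probe of each gene (log2 signal minus the array's 75th percentile, y axis) on every array of the 4 groups; points are arrays, bars the mean ± SD of 5 lambs, cortisol in red and control in dark blue. NR3C1 in LV is the only panel in which all 5 cortisol arrays of a region lie above the mean of their controls, and the septum of HSD11B1 the only one in which all 5 lie below it.

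In the LV the clearest difference between the treatments was in NR3C1. Its level was -0.42, -0.54, -0.00099, -0.91 and -0.56 in LV of cortisol lambs 1 to 5, against -0.21, -1.31, -1.69, -1.46 and -1.05 in LV of control lambs 1 to 5. Control lamb 1 lay above 4 of the 5 cortisol lambs, and the other 4 control lambs lay below all cortisol lambs, so the groups overlapped through 1 animal. The means were -0.49 ± 0.33 in cortisol and -1.14 ± 0.57 in control lambs (SD, n = 5 each). The difference was 0.66 ± 0.28 (SE) on the log2 scale, a 1.58-fold higher signal with a 95% confidence interval of 1.03- to 2.42-fold. In limma its unadjusted p was 0.0393 and its Benjamini-Hochberg adjusted p over 9791 probes 0.879, so it did not pass.

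No probe of the array passed in LV (0 of 9791, 0%), and 505 probes (5.16%) had an unadjusted p under 0.05. Of the 7 member probes tested, 1 was among these, and 3.76% of all probes had a smaller p than NR3C1. All 5 cortisol arrays lay above the control mean for NR3C1, as they did for 5.07% of probes. The NR3C1 difference was 0.81 on slide 2 (1 cortisol and 2 control arrays) and 0.67 on slide 3 (3 of each). It stayed between 0.41 and 0.89 in every alternative tried in LV, the lowest with normexp background correction and the highest without control lamb 1, and its adjusted p was never under 0.364.

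NR3C1 in septum gave no such pattern. The levels were 0.18, -0.48, 0.77, -0.79 and -1.09 in septum of cortisol lambs 1 to 5, against 0.092, -0.91, -0.68, -0.80 and -0.63 in septum of control lambs 1 to 5. Cortisol lambs 1 and 3 lay above all controls and cortisol lamb 5 below all of them, so the cortisol group spanned the control group on both sides. The means were -0.28 ± 0.75 in cortisol and -0.58 ± 0.39 in control lambs (SD, n = 5 each), a difference of 0.30 ± 0.35 (SE; limma adjusted p = 0.843). Within slides the direction was not kept: the difference was 0.70 on slide 1 (3 arrays of each) and -0.29 on slide 2 (2 of each), and 0.039 without cortisol lamb 3. In septum, too, no probe of 10369 passed (0%), 379 (3.66%) had an unadjusted p under 0.05, and no member probe was among them.

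NR3C2 did not separate the treatments in either region. In LV probe 1 read 2.47, 1.68, 1.89, 1.65 and 2.44 in cortisol lambs 1 to 5, against 2.83, 1.89, 1.83, 1.14 and 2.28 in control lambs 1 to 5. Control lambs held both the highest and the lowest value. The difference was 0.03 ± 0.31 (SE; limma adjusted p = 0.988), and the 95% interval ran from 0.640- to 1.63-fold. In septum probe 1 read 2.62, 1.87, 2.35, 2.33 and 2.43 in cortisol lambs, against 3.01, 2.11, 2.20, 2.17 and 2.34 in control lambs. The difference was -0.05 ± 0.21 (SE; limma adjusted p = 0.963), with an interval of 0.701- to 1.34-fold. Probe 2 gave 0.10 ± 0.31 in LV and -0.13 ± 0.21 in septum. Changes within these intervals cannot be told from none with 5 lambs a group.

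The 2 probes of NR3C2 followed each other closely although they share no bases. Over 20 arrays their Pearson correlation was 0.958, and the difference between them had an SD of 0.14. The spread of NR3C2 among lambs, for instance 1.14 to 2.83 in LV of controls, was therefore seen by both probes on the same arrays.

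HSD11B1, which makes cortisol from cortisone, had lower mean levels in cortisol lambs in both regions, and neither difference passed. In septum probe 1 read -2.07, -2.15, -2.02, -3.49 and -2.77 in cortisol lambs 1 to 5, against -1.07, -1.97, -2.34, -1.79 and -2.43 in control lambs 1 to 5. Control lambs 1, 2 and 4 lay above all cortisol lambs, and all 5 cortisol lambs lay below the control mean, as they did for 3.69% of probes. The means were -2.50 ± 0.63 in cortisol and -1.92 ± 0.54 in control lambs (SD, n = 5 each). The difference was -0.58 ± 0.34 (SE), or 0.669-fold with an interval of 0.400- to 1.12-fold (limma adjusted p = 0.821). It was -0.47 on slide 1 and -0.74 on slide 2, -0.33 without cortisol lamb 4, -0.37 without control lamb 1 and -0.20 with normexp background correction.

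In LV the HSD11B1 values were -1.99, -1.68, -1.82, -3.11 and -2.76 in cortisol lambs 1 to 5, against -1.19, -1.99, -2.11, -2.16 and -2.55 in control lambs 1 to 5. Cortisol lambs 4 and 5 had the lowest values, and cortisol lambs 2 and 3 lay above every control except lamb 1. The difference of -0.27 ± 0.33 (SE; limma adjusted p = 0.904) was -0.059 without cortisol lamb 4 and turned to 0.053 with array weights. HSD11B1 was the member most alike in the regions of a lamb: over 10 lambs its LV and septum values had a Pearson correlation of 0.917, so the low values of cortisol lambs 4 and 5 were found in both tissues. For the other leading probes that correlation was 0.562 to 0.810. Probe 2 was well above background on 1 LV array of cortisol lambs and 2 of control lambs, on no septum array of cortisol lambs and 2 of control lambs, and was not tested.

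HSD11B2, which inactivates cortisol, had the largest LV difference of the members and the largest error. Probe 1 read -3.03, -3.23, -4.22, -2.12 and -5.13 in LV of cortisol lambs 1 to 5, against -3.60, -5.26, -5.02, -3.91 and -4.81 in LV of control lambs 1 to 5. With 3 of 5 arrays of cortisol lambs and 2 of 5 of control lambs well above background, the remaining values have no order among themselves. The difference was 0.97 ± 0.53 (SE), or 1.96-fold with an interval of 0.875- to 4.40-fold (limma adjusted p = 0.879). It was 0.76 on slide 3 and -0.22 on slide 2, and 0.62 without cortisol lamb 4, whose LV array was alone on slide 4. Probe 2 gave a like difference, 0.98 ± 0.67 (SE). In septum probe 1 read -3.83, -3.94, -6.73, -3.01 and -6.51 in cortisol lambs, against -4.14, -5.03, -6.47, -3.81 and -5.54 in control lambs. Its difference was 0.19 ± 0.77 (SE; limma adjusted p = 0.956), with -0.51 on slide 1 and 1.25 on slide 2.

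The almost identical HSD11B2 probes show how far a single reading at this signal can be trusted. On the 10 arrays where both were well above background, their difference had an SD of 0.25 and was at most 0.41. On the other 10 arrays the SD was 0.96 and the largest gap 1.63, for the same RNA on the same array. The spread among lambs, values not well above background included, was a pooled SD within groups of 0.97 in LV and 1.42 in septum for probe 1, above that of 93.6% and 98.4% of the probes tested.

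**Figure D2:**
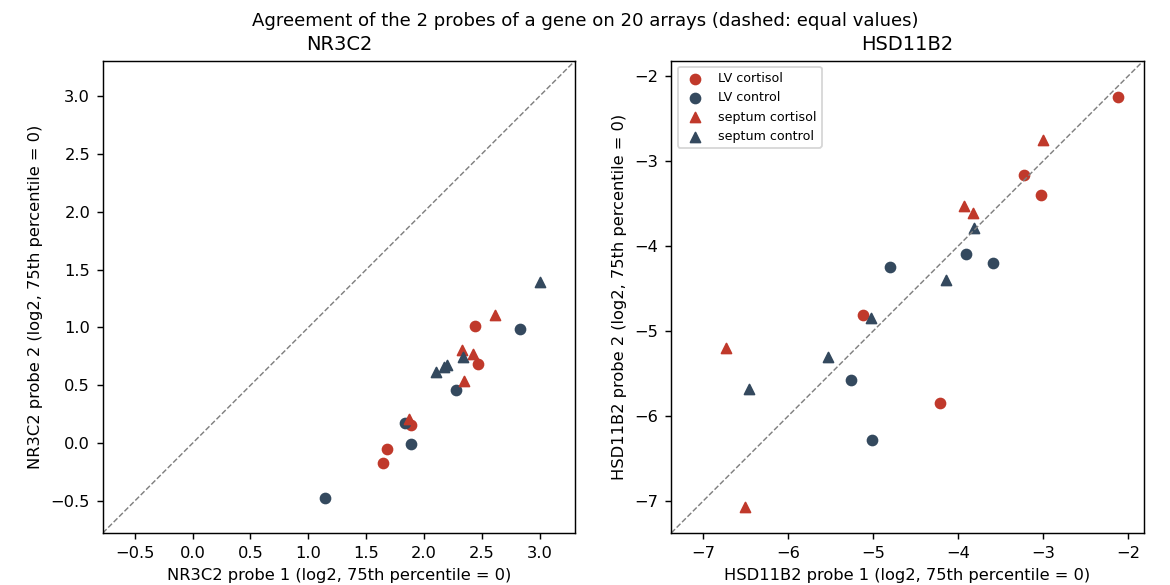
Probe 2 against probe 1 of NR3C2 (left) and HSD11B2 (right) on 20 arrays, both as log2 signal minus the array's 75th percentile; circles are LV, triangles septum, red cortisol and dark blue control. NR3C2 points follow a line parallel to the dashed line of equal values, whereas HSD11B2 points scatter about it, up to 1.63 apart on arrays where at least 1 probe was not well above background.

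HSP90AA1, the stress-inducible cytosolic HSP90, differed little. In LV it read 0.17, 0.41, 0.46, 1.34 and 0.48 in cortisol lambs 1 to 5, against 0.20, 0.32, 0.56, 0.21 and 0.66 in control lambs 1 to 5. Cortisol lamb 4 stood apart from the other 4, which lay within the control range apart from lamb 1 just below it. The difference of 0.18 ± 0.23 (SE; limma adjusted p = 0.905) was -0.011 without that lamb. In septum the values were 0.45, 0.44, 1.33, 1.09 and 0.81 in cortisol lambs and 0.50, 0.70, 1.17, 0.40 and 0.66 in control lambs. The difference was 0.13 ± 0.22 (SE; limma adjusted p = 0.885), and 0.0083 without cortisol lamb 3.

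Averaging LV and septum of each lamb gave 5 cortisol values against 5 control values per probe. No probe of 10069 passed (0%), 523 (5.19%) had an unadjusted p under 0.05, and no member probe was among them. The differences were 0.48 ± 0.29 for NR3C1, -0.0078 ± 0.24 for NR3C2, -0.42 ± 0.33 for HSD11B1, 0.58 ± 0.63 for HSD11B2 and 0.16 ± 0.20 for HSP90AA1 (SE, with limma adjusted p from 0.814 to 0.994). With 1 lamb left out they ranged from 0.29, without cortisol lamb 3, to 0.68 for NR3C1 and from -0.56 to -0.20, without cortisol lamb 4, for HSD11B1. For HSD11B2 the range was 0.18, without cortisol lamb 4, to 0.99, without cortisol lamb 5, and for HSP90AA1 0.029, without cortisol lamb 4, to 0.26, without cortisol lamb 1. The cortisol difference in septum minus that in LV was -0.35 ± 0.46 for NR3C1 and lay between -0.78 and -0.047 for the other leading probes. With 1 array left out it ran from -0.62 to -0.15 for NR3C1 (without septum of cortisol lambs 3 and 5), from -0.52 to -0.062 for HSD11B1 (without LV and without septum of cortisol lamb 4) and from -1.23 to -0.29 for HSD11B2 (without septum of cortisol lambs 4 and 3), and it changed sign for NR3C2 and HSP90AA1. With arrays taken as independent none passed, and 0 of 10069 probes did (38 with an unadjusted p under 0.05, 0.377%). That fit does not use the pairing of LV and septum of a lamb. With lamb as a block 357 of 10069 probes had an unadjusted p under 0.05, and again 0 passed. No member was therefore shown to respond otherwise in one region than in the other.

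**Figure D3:**
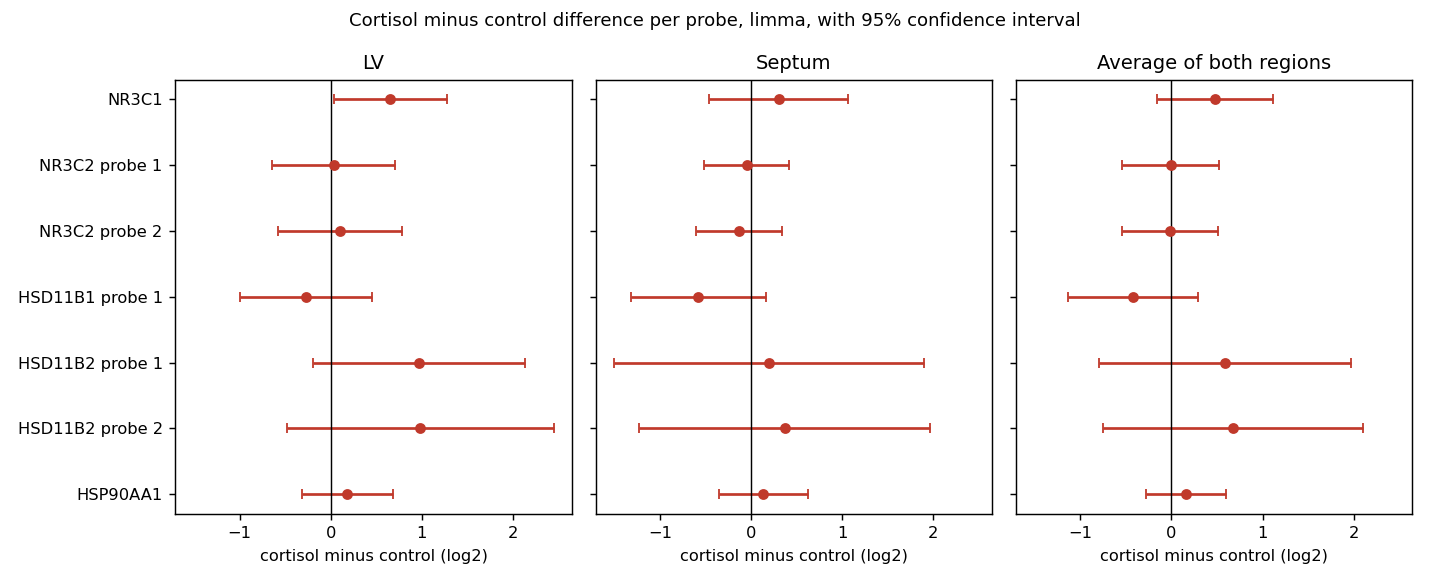
Cortisol minus control difference (log2, x axis) of 7 member probes in LV, in septum and in the average of both regions of a lamb; points are limma estimates and bars 95% confidence intervals. The NR3C1 interval in LV, 0.038 to 1.27, is the only one without 0, and the HSD11B2 intervals are the widest.

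The 4 groups lay close together for every gene whose probe was well above background on all arrays. NR3C1 was highest in septum of cortisol lambs, then LV of cortisol lambs, septum of control lambs and LV of control lambs; the last step, 0.56, lay between the SDs of its groups, 0.39 and 0.57, and the others were smaller than both SDs. For NR3C2 probe 1 septum of cortisol and of control lambs came first, 0.046 apart, and LV of cortisol and of control lambs followed, 0.031 apart. The step of 0.29 between septum and LV of cortisol lambs was above the SD of the first and below that of the second. For HSD11B1 and HSP90AA1 every step between neighbours was smaller than both SDs. The HSD11B2 groups were not ordered, since only 2 or 3 of 5 arrays in each were well above background.

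The septum was therefore compared with LV, which the samples allow within lambs: the 2 arrays of a treatment and number shared their deviations, as is described with the processing. NR3C2 was higher in septum than in LV in 9 of 10 lambs by either probe, as were 11.2% of probes in at least 9 lambs. For probe 1 the septum minus LV difference was 0.15, 0.19, 0.46, 0.68 and -0.014 in cortisol lambs 1 to 5, and 0.18, 0.22, 0.36, 1.03 and 0.060 in control lambs 1 to 5. Only cortisol lamb 5 was below 0, and the largest differences belonged to lambs 4 of both groups. Cortisol lamb 5 and control lambs 3 and 5 were the 3 lambs with both arrays on slide 2. NR3C1 was also higher in septum in 9 of 10 lambs, by 0.60, 0.068, 0.77, 0.12 and -0.53 in cortisol lambs and by 0.30, 0.40, 1.01, 0.66 and 0.42 in control lambs. HSP90AA1 was higher in 8 of 10 lambs, as 21.3% of probes were in at least 8.

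Taking arrays as independent, no member probe passed in cortisol lambs (0 of 10069 probes, 0%), in control lambs (4 probes, 0.0397%, all lower in septum, of which only FGF7 could be named, after its value was seen) or over both treatments, a comparison added after the data were seen (53 probes, 0.526%). With lamb as a block the counts were 118 probes (1.17%) in cortisol lambs, 788 (7.83%) in control lambs and 1773 (17.6%) over both treatments. With that block no member probe passed in cortisol or control lambs alone, where the lowest adjusted p-values were 0.0573 for HSD11B2 probe 1 in cortisol lambs and 0.0513 for NR3C2 probe 2 in control lambs. Over both treatments 3 of 7 member probes passed, 2 of them higher in septum (as 7.31% of probes) and 1 lower (as 10.3%).

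The probes that rose in septum were both of NR3C2. Probe 1 was higher by 0.33 ± 0.10 (SE), 1.26-fold (limma with lamb as a block, adjusted p = 0.0465), and probe 2 by 0.47 ± 0.11, 1.39-fold (adjusted p = 0.0190). NR3C1 had 0.38 ± 0.12 (adjusted p = 0.0527) and HSP90AA1 0.27 ± 0.10 (adjusted p = 0.0881), and neither passed. HSD11B1 had -0.075 ± 0.073 (adjusted p = 0.50), a mean over unlike directions. Its probe 1 was lower in septum in 5 of 5 cortisol lambs (-0.23 ± 0.20, SD). In control lambs it was higher in 4 of 5 (0.080 ± 0.22, SD). The difference between the treatments did not pass. When each lamb was left out in turn, probe 2 of NR3C2 passed in 10 of 10 fits, and probe 1 in 1 of 10, the fit without cortisol lamb 5, with an adjusted p up to 0.0887 in the others. NR3C1 passed in 1 of 10 as well, also without cortisol lamb 5 (adjusted p = 0.0106), and HSP90AA1 in 1 of 10, without cortisol lamb 4 (adjusted p = 0.0375).

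Region and slide largely coincided, and the NR3C2 difference was smaller where slide was taken into account. With slide as a fixed block probe 1 had 0.11 ± 0.34 and probe 2 0.15 ± 0.32 (limma adjusted p = 0.967 and 0.948). In the 3 lambs with both arrays on slide 2 probe 1 had 0.14 ± 0.14 and probe 2 0.18 ± 0.19 (adjusted p = 0.687 and 0.693). With normexp background correction and lamb as a block the values were 0.17 ± 0.19 and 0.33 ± 0.11 (adjusted p = 1.00 and 0.677). Outside the lambs of slide 2, region and slide cannot be told apart.

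For HSD11B2 the comparison of septum with LV is limited by its low signal: probe 1 was well above background on 11 of 20 arrays, and 1 septum value of a cortisol lamb was a surrogate put in place of the signal by the scanner software. Its mean was lower in septum by -0.87 ± 0.20 (limma with lamb as a block, adjusted p = 0.0156), and no fold is given because values without order enter both means. It read lower in septum in 8 of 10 lambs, as 21.7% of probes did in at least 8, a count that also includes values not well above background. With 1 lamb left out the adjusted p lay between 0.0199 and 0.0386. It did not pass with arrays taken as independent (adjusted p = 0.506) or under the other 8 alternatives, among which it was -0.47 ± 0.82 with slide as a fixed block (adjusted p = 0.938), -0.85 ± 0.59 with slide as a random block (adjusted p = 0.778) and -0.14 ± 0.27 with normexp background correction and lamb as a block (adjusted p = 1.00). Probe 2, shifted by 1 base, had -0.23 ± 0.25 with lamb as a block (adjusted p = 0.545), so the 2 probes of this gene did not give the same call. In the 3 lambs on slide 2 the values were -1.19 ± 0.19 for probe 1 and -0.90 ± 0.56 for probe 2 (adjusted p = 0.355 and 0.527).

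**Figure D4:**
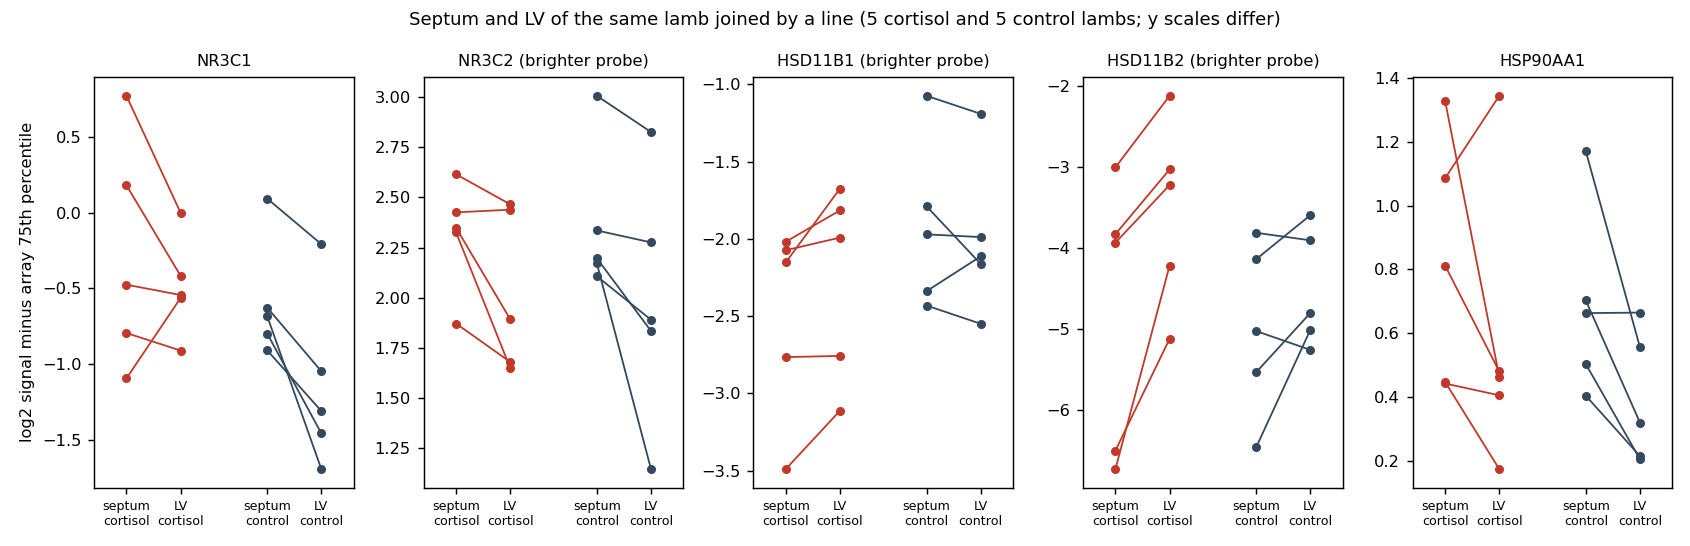
Septum (left of each pair) and LV (right) of the same lamb for the brightest probe of each gene, as log2 signal minus the array's 75th percentile; each line is 1 lamb, cortisol in red and control in dark blue. Lines of NR3C2 and NR3C1 fall to the LV side in 9 of 10 lambs, and those of HSD11B2, many between values not well above background, scatter most.

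**Figure D5:**
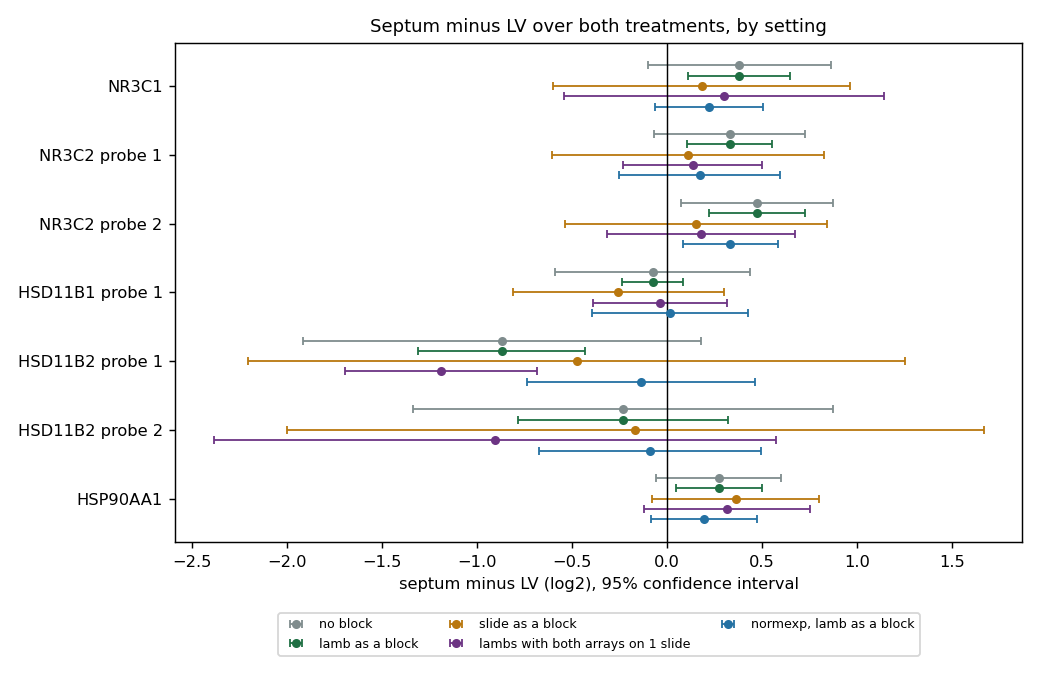
Septum minus LV difference over both treatments (log2, x axis) of 7 member probes under 5 settings; points are limma estimates and bars 95% confidence intervals. With lamb as a block the intervals of both NR3C2 probes, of NR3C1 and of HSP90AA1 lie above 0, and that of the brighter HSD11B2 probe lies below 0. The intervals are not adjusted for the number of probes tested. Those of both NR3C2 probes include 0 with slide as a block or in the 3 lambs of slide 2.

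Other genes of the pathway were sparsely named on the array, and none passed in either region. Of 30 chaperones and co-chaperones 2 were measured, the endoplasmic reticulum chaperone HSPA5 and the inducible HSPA1A. HSPA5 differed by 0.0092 ± 0.40 in LV and by 0.41 ± 0.43 in septum (SE). HSPA1A differed by 0.32 ± 0.36 in LV and by 0.33 ± 0.38 in septum (SE). HSPA1A averaged -0.026 ± 0.72 in LV of cortisol lambs and -0.35 ± 0.51 in LV of control lambs (SD, n = 5 each). Of 31 receptor coregulators 3 were tested, 1 positive in LV and 2 in septum. Among them PRMT1 and PPARGC1A differed by 0.17 or less in either region.

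Of 31 genes of steroid synthesis, carriage and metabolism 3 were tested, with 1 positive difference in each region. CYP17A1, the 17-alpha-hydroxylase, had -0.52 ± 0.42 in LV and -0.65 ± 0.40 in septum, and the efflux transporter ABCB1 -0.14 ± 0.86 and -0.66 ± 0.94 (SE). CYP21, the 21-hydroxylase, had 0.072 in LV and 0.018 in septum. Of 34 other steroid and nuclear receptors 4 were tested in LV (3 positive) and 5 in septum (4 positive). The oestrogen receptor ESR1 had 1.05 ± 0.43 in LV and 0.74 ± 0.32 in septum (SE), with unadjusted p-values of 0.0310 and 0.0430 and adjusted p-values of 0.879 and 0.821 in limma. The thyroid hormone receptor THRB, PPARG and PPARA differed by 0.30 or less.

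In the pituitary and adrenal axis 3 of 18 genes were tested, 1 positive in each region, that of the hormone precursor POMC; the angiotensin receptors AGTR1 and AGTR2 had -0.18 and -0.25 in LV and -0.46 and -0.38 in septum. Of 16 genes of mineralocorticoid-responsive transport 2 were tested, among them the sodium pump subunit ATP1B1, with a difference of -0.068 in LV and 0.097 in septum. The median over all probes tested was -0.015 in LV and 0.030 in septum, and 48.2% and 54.1% of probes had positive differences.

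Among the marker lists the fibroblast genes had 1 sign throughout. All 9 fibroblast and matrix genes that were named, of 16 (BGN, COL1A1, COL1A2, COL3A1, COL5A2, COL6A1, DCN, FBLN1 and VIM), had positive cortisol minus control differences in LV and in septum, with medians of 0.49 and 0.47, and none passed. Their mean level per array ranged from -0.20 to 1.63 in LV of cortisol lambs and from 0.27 to 0.69 in LV of control lambs. In septum the range was -0.23 to 1.38 in cortisol lambs and -0.081 to 0.35 in control lambs. The 3 cardiomyocyte markers were positive too, with medians of 0.29 in LV and 0.31 in septum, and 2 of 6 endothelial genes were in LV and 4 in septum. Monocyte and macrophage genes were positive in 4 of 4 in LV and 3 of 4 in septum, and both neutrophil genes tested, BAC5 and CATHL3, were negative in both regions. Lymphocyte, red cell, smooth muscle and nerve lists had 1 to 3 genes tested, and no gene of these lists passed for cortisol. SELE of the endothelial list, ITGAM of the monocyte list and CD4 of the lymphocyte list were well above background on none of the 20 arrays. The part of these lists in the NR3C1 and HSD11B values was not tested.

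Over 20 arrays, with the mean of each region subtracted, the genes most like each member were found among 517 named genes. For NR3C1 they were CLOCK, a transcription factor of the circadian clock (Pearson r = 0.878), NAMPT, an enzyme of NAD synthesis (0.853), and PPP1R12A, a subunit of myosin phosphatase (0.832), where the 95th percentile over the 517 genes was 0.728. For NR3C2 they were the lactate transporter SLC16A1 (0.854), the growth factor FGF7 (0.713) and the muscle glycogen phosphorylase PYGM (0.709). HSD11B1 was most like the prostaglandin receptor PTGER3 (0.742), THRB (0.729) and KITLG (0.727). HSD11B2, well above background on 11 arrays, was most like the water channel AQP4 (0.761), and HEXA was also among the genes most like it (0.703). HSP90AA1 was most like CD9 (0.762) and GLRX2 (0.659). The 95th percentile over the 517 genes was 0.494 for NR3C2, 0.618 for HSD11B1, 0.527 for HSD11B2 and 0.447 for HSP90AA1. Arrays of a lamb and of a slide share what is common to them, and these values are descriptions. Among the members the highest correlation was 0.483 between NR3C1 and NR3C2, and the lowest -0.598 between HSD11B1 and HSP90AA1. With the log2 75th percentile of the array, HSD11B1 probe 1 had a correlation of -0.450 and HSP90AA1 of 0.406 over 20 arrays. The part of array brightness in the -0.598 was not tested.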

How the data were processed

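The files were 1-colour Agilent scanner outputs, 1 per array, read with Agilent Feature Extraction 10.1.1.1 per the submitters' processing notes, and a deposited table of the authors' log2 values. Per the file headers the intensity used, the processed signal, is background-corrected. The deposited log2 table has array medians of 6.71 to 6.72 for LV and, for septum, of 9.49 to 9.54; it served as an alternative within a region only. It holds no septum value for the HSD11B1 and HSD11B2 probes, and the authors' further steps with limma are not given in the sources used here.

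Outlier spots were dropped, log2 signals were taken minus each array's 75th percentile, and spots of a probe were averaged. Probes well above background on at least 5 of 10 arrays of a region (10 of 20 for both regions) were fitted with limma 3.58.1 in R 4.3.3 (lmFit, eBayes), with Benjamini-Hochberg adjustment over all probes, two-sided, at 0.05. The fit was tested on simulated data. Figures were drawn with matplotlib 3.10.9.

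LV and septum arrays of the same treatment and number deviated together from their group means, with correlations of 0.450 to 0.813 in 10 of 10 pairs. Each LV array had its highest correlation over septum arrays with the one of its own treatment and number. The arrays of such a pair were therefore taken as 1 lamb. Slides are as the file headers give them, and each slide had 1 scan. Alternatives covered background, scaling, filter, slide, array weights, pairing and each array left out.

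Probes were named from the files and RefSeq (assembly ARS-UI_Ramb_v3.0): 1613 of 15008 probes, 988 genes. NR3C2 was assigned from the probe description. The genes named are the 5 members with every probe, up to 4 members of each pathway list with the highest mean level, and the 3 genes most like each member; a few genes that this rule names are not reported here. Members and lists were chosen with earlier results of these data known. Term fetuses mentioned by the submitters were not analysed here. The number of arrays limits the precision.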

Additional observations from a re-analysis of the deposited data

Results flagged for a closer look

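In groups of 5, a sample far from the others was sought for the 8 member probes in the 4 groups, 32 sets of values in all. Chance alone marks about 1 in 20 of independent sets. These sets are not independent, because they share arrays and the NR3C2 probes had a correlation of 0.958. There were 5 such values, a count that cannot be set against that rate. The control lamb 1 supplied 4 of them: in septum NR3C1 at 0.092, NR3C2 probe 1 at 3.01 and NR3C2 probe 2 at 1.40, and in LV the dim HSD11B1 probe 2 at -3.46, each the highest of its group. The LV array of cortisol lamb 4, alone on its slide, had the highest HSP90AA1 of its group at 1.34. Without control lamb 1 the NR3C1 difference was 0.89 in LV and 0.47 in septum, and the HSD11B1 difference -0.067 in LV and -0.37 in septum. No member's cortisol difference was shown to differ between LV and septum.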

How the results depend on the processing

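The number of probes passing for cortisol stayed at 0 in LV, in septum, in their average and for the difference between regions under every alternative run. Probes with an unadjusted p under 0.05 ranged from 222 (normexp) to 1223 (array weights) in LV, from 7 (normexp) to 1793 (no filter, lowest adjusted p 0.0543) in septum, from 54 (normexp) to 1554 (within slides 1 and 3) in the average and from 0 (normexp) to 488 (within slide 2) for the difference. The septum comparison depended on the settings, and the cause was not tested. In cortisol lambs, against 0 probes, 2 passed with quantile normalization, 2 with the percentile over probes detected on all arrays, 1 with probes well above background on every array, 1 with array weights, 2 with limma-trend, and 0 to 21 with 1 array left out, the highest without the LV array of lamb 5. In control lambs, against 4, the counts were 0 with normexp, 1 with quantile normalization, 1 with the percentile over detected probes, 1 without the filter, 0 with slide as a fixed or a random block, 277 with array weights, 0 within slide 2, and 0 to 2 with 1 array left out, whichever it was. Over both treatments, against 53, they were 1 with normexp, 0 with slide as a fixed block, 2 as a random block, 8 with normexp and lamb as a block, 0 in the lambs of slide 2, and 1124 to 2282 with lamb as a block and 1 lamb left out.

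The replicate block gave 118 probes in cortisol lambs, 788 in control lambs and 1773 over both treatments. For cortisol against control the shared numbers are no pairing (correlations from 0.0735 in LV and 0.0587 in septum, own number highest in 3 of 5 each), and the block left the count at 0 in LV and in septum; NR3C1 in LV then had 0.66 with an adjusted p of 0.741.

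Member differences that did not pass changed sign as follows, in log2. In LV NR3C2 was -0.045 with normexp and -0.041 in the authors' deposited table, HSD11B1 0.053 and HSP90AA1 -0.027 with array weights, and within slide 2 HSD11B2 was -0.22 and HSP90AA1 -0.13. In septum NR3C1 was -0.29 and NR3C2 0.11 within slide 2, and HSD11B2 -0.51 within slide 1. In the average NR3C2 was 0.052 with slide as a fixed block, 0.0050 as a random block, 0.088 with array weights and 0.27 within slide 2; HSD11B2 was -0.022 with slide as a fixed block and -0.36 within slide 2; HSP90AA1 was -0.0086 with array weights and -0.12 within slide 2. In the difference between regions HSD11B2 was 1.46 within slide 2, and HSP90AA1 0.10 with slide as a fixed block, 0.065 with array weights and 0.16 within slide 2. For septum against LV, NR3C1 in cortisol lambs was -0.023 with slide as a fixed block and -0.38 within slide 2, NR3C2 -0.064 and HSD11B2 0.37 within slide 2; in control lambs HSD11B1 was -0.048 with slide as a fixed block and -0.054 within slide 2, and HSD11B2 0.075 by probe 2; over both treatments HSD11B1 was 0.017 with normexp.

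With 1 array or lamb left out, the differences ranged from -0.18 to 0.24 for NR3C2 and -0.011 to 0.28 for HSP90AA1 in LV, from -0.12 to 0.11 for NR3C2 and -0.25 to 0.68 for HSD11B2 in septum, and from -0.14 to 0.18 for NR3C2 in the average. For the difference between regions they ranged from -0.29 to 0.14 for NR3C2 and -0.17 to 0.15 for HSP90AA1. For septum against LV they ranged from -0.059 to 0.41 for NR3C1 and -0.44 to 0.018 for HSD11B1 in cortisol lambs, and from -0.13 to 0.28 for HSD11B1 in control lambs. The second probe of HSD11B1 was too dim to be tested as an alternative, and NR3C1 and HSP90AA1 have no second probe. Low signal limits HSD11B2 most.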
